A study of Mus musculus with 2 samples.

Results

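Fc receptors are the proteins by which immune cells sense antibodies, and their 7 mouse genes studied here were Fcgr1, Fcgr3, Fcgr4, Fcer1g, Fcgr2b, Fcgrt and Fcer1a, out of 32285 genes in the deposited tables. They were taken by symbol. Transcripts were counted in CD45+ leukocytes that beads had pulled out of intracranial CT-2A gliomas, tumours of a mouse cell line, 14 days after the implant. The Glut5 KO library came from the genotype without the fructose transporter Glut5 (gene Slc2a5), and the wildtype library from unaltered hosts. All hosts carried the same tumour, and there was 1 library per genotype. Each title names a single mouse, yet both libraries held female and male cells, a conflict that the labels do not settle, and they do not say which tissues lost Glut5. No difference below could be checked against replicates or given a p-value, and genotype, animal and library cannot be told apart. Values in brackets are exact 95% intervals that cover counting error only.

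Antibodies of the IgG class join 2 arms of immunity, since B lineage cells make them and phagocytes read them. In mice the activating IgG receptors FcγRI (Fcgr1), FcγRIII (Fcgr3) and FcγRIV (Fcgr4) signal through a shared partner, the Fc receptor gamma chain (Fcer1g), whose ITAM motif recruits the kinase Syk and starts engulfment and killing. FcγRIIB (Fcgr2b) is the inhibitory IgG receptor, which recruits the phosphatase SHIP1. FcRn (Fcgrt) works inside cells with beta-2 microglobulin, where it rescues IgG from breakdown and helps dendritic cells present antigen bound to it. FcεRI, whose alpha chain is Fcer1a, arms mast cells and basophils with IgE. The question the design poses is how these receptors stood in tumour leukocytes of Glut5 KO and wildtype hosts.

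The Glut5 KO library had 12165 barcodes with 96851696 UMIs, which are tags for single transcript molecules, and the wildtype library had 11495 barcodes with 116105873 UMIs. Medians per barcode were 6498 UMIs in Glut5 KO and 8662 in wildtype. Slc2a5 itself had 1 UMI in Glut5 KO and 384 in wildtype, as the labels imply. Ptprc, the gene of CD45, was detected in 70.9% of kept Glut5 KO and 75.6% of kept wildtype barcodes. The Fc receptor genes took 0.594% of UMIs in Glut5 KO and 0.698% in wildtype. Marker gates placed 8741 Glut5 KO and 8474 wildtype cells in 12 classes, each called -like since no protein was measured, and 8 classes held at least 50 cells in both libraries. Barcodes with markers of several classes were left out (8.61% of kept barcodes in Glut5 KO, 8.36% in wildtype), and the ungated remainder was shallower in Glut5 KO (median 1394 UMIs) than in wildtype (3802 UMIs). The 2 libraries had 188 barcode sequences in common. Both held female and male cells, told apart by Xist and Y-linked transcripts, in different mixtures. Among the cells that could be sexed, female cells were 65.0% of microglia-like cells in Glut5 KO and 57.9% in wildtype. They were 56.3% of monocyte/macrophage-like cells in Glut5 KO and 40.1% in wildtype. In cDC1-like cells the female share was 65.5% in Glut5 KO and 24.3% in wildtype, and in cDC2-like cells 61.3% and 40.3%. In the same order, migratory dendritic cell-like cells had 51.6% and 29.8%, and plasmacytoid dendritic cell-like cells 57.5% and 27.9%. NK cell-like cells had 63.6% and 26.2%, and T cell-like cells 37.5% and 24.4%. The part of the sex mixture in the ratios of these classes was not tested.

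Of the 7 genes, 4 lie within 276 kb of each other on mouse chromosome 1 (GRCm38). Fcgr2b (ENSMUSG00000026656) spans chr1:170958617-170976547 on the minus strand, Fcgr4 (ENSMUSG00000059089) spans chr1:171018920-171029761 on the plus strand, Fcgr3 (ENSMUSG00000059498) spans chr1:171051174-171064935 on the minus strand and Fcer1g (ENSMUSG00000058715) spans chr1:171229572-171234365 on the minus strand. Fcer1a (ENSMUSG00000005339) lies further along, at chr1:173221284-173227214. Fcgr1 (ENSMUSG00000015947) is at chr3:96282909-96293969 and Fcgrt (ENSMUSG00000003420) at chr7:45092990-45103851. Because the libraries read transcript starts, the stretch before each start site is shown for the 4 IgG receptors of phagocytes, 250 bases each, 5′ to 3′ on the gene's own strand, as RefSeq places the start on GRCm38.p6. Capitals mark GAS elements (TTCNNNGAA, known from interferon-gamma responses) and the purine box GAGGAA (the core of many sites of the myeloid factor PU.1), read on either strand. The windows are chr3:96293970-96294219 for Fcgr1, chr1:171059404-171059653 for Fcgr3, chr1:171018676-171018925 for Fcgr4 and chr1:170976072-170976321 for Fcgr2b.
Fcgr1: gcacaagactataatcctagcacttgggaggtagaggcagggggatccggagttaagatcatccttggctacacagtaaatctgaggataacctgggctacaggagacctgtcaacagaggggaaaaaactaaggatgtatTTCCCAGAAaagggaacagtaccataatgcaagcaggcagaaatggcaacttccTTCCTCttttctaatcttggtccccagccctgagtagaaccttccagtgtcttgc
Fcgr3: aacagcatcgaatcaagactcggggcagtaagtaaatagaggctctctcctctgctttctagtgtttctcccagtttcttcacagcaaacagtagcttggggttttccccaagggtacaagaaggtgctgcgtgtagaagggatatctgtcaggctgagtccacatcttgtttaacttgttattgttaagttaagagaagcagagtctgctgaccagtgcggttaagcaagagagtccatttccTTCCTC
Fcgr4: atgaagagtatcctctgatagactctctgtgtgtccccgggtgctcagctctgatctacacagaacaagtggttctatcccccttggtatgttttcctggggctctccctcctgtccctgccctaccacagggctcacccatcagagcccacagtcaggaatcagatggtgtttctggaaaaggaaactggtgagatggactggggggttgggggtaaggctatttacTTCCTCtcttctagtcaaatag
Fcgr2b: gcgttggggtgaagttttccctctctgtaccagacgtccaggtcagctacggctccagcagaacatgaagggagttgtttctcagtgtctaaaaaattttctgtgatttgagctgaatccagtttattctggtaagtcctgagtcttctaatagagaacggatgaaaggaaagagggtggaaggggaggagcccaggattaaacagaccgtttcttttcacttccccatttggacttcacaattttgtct

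Each of the 3 activating receptor genes had the purine box close to its start, 55 bases before it in Fcgr1, 6 bases in Fcgr3 and 22 bases in Fcgr4, always as TTCCTC on the gene's strand. A RefSeq start of Fcgr3 that lies a few bases further along has the same box 15 bases before it. Fcgr1 alone among the 7 genes also had a GAS element, 109 bases before the start, and the 2 motifs did not overlap. Neither motif was found in the window of the inhibitory gene Fcgr2b, nor in those of Fcer1g and Fcgrt. Fcer1a had a purine box 216 bases before its start. The windows of Fcgr3 and Fcgr2b lie inside the gene spans given above, so what they hold depends on the RefSeq starts. Among all 32851 promoter windows of this length, 7.02% held a GAS element and 23.3% a purine box, so these matches describe the windows and show no binding. Fcgr2b and Fcgr3 share some sequence, so a few reads can match both. Over the first 500 bases of their transcripts, 4.98% of the stretches of read length (91 bases) in Fcgr3 also occurred in Fcgr2b, and 1.33% of those in Fcgr2b occurred in Fcgr3.

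IgG receptors were phagocyte transcripts in both libraries. Levels are given in CPM, UMIs of the gene per 1e6 UMIs of the class, and they count molecules by their 5′ ends, so they were not divided by gene length. In monocyte/macrophage-like cells, the largest class with 5381 Glut5 KO and 5427 wildtype cells, Fcgr1, the high-affinity receptor, stood at 532 CPM in Glut5 KO and 427 CPM in wildtype. Fcgr3, the main low-affinity activating receptor, had 659 CPM in Glut5 KO and 746 CPM in wildtype there. Fcgr4, which binds IgG2a and IgG2b, had 468 CPM in Glut5 KO and 456 CPM in wildtype. The inhibitory Fcgr2b had 541 CPM in Glut5 KO and 622 CPM in wildtype, so no single IgG receptor dominated the class in either library.

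Microglia-like cells, the resident macrophages of the brain, numbered 1167 in Glut5 KO and 1537 in wildtype and leaned toward Fcgr3. Its level was 1017 CPM in Glut5 KO and 860.0 CPM in wildtype, the highest of any class with 50 cells. Fcgr1 had 456 CPM in Glut5 KO and 444 CPM in wildtype in these cells, Fcgr4 had 379.9 CPM in Glut5 KO and 368 CPM in wildtype, and Fcgr2b had 562 CPM in Glut5 KO and 495 CPM in wildtype. The signalling chain Fcer1g gave several times more UMIs than any receptor it serves. It reached 5179 CPM in Glut5 KO and 5579.9 CPM in wildtype microglia-like cells, and 5483 CPM in Glut5 KO and 5957 CPM in wildtype monocyte/macrophage-like cells.

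**Figure D1:**
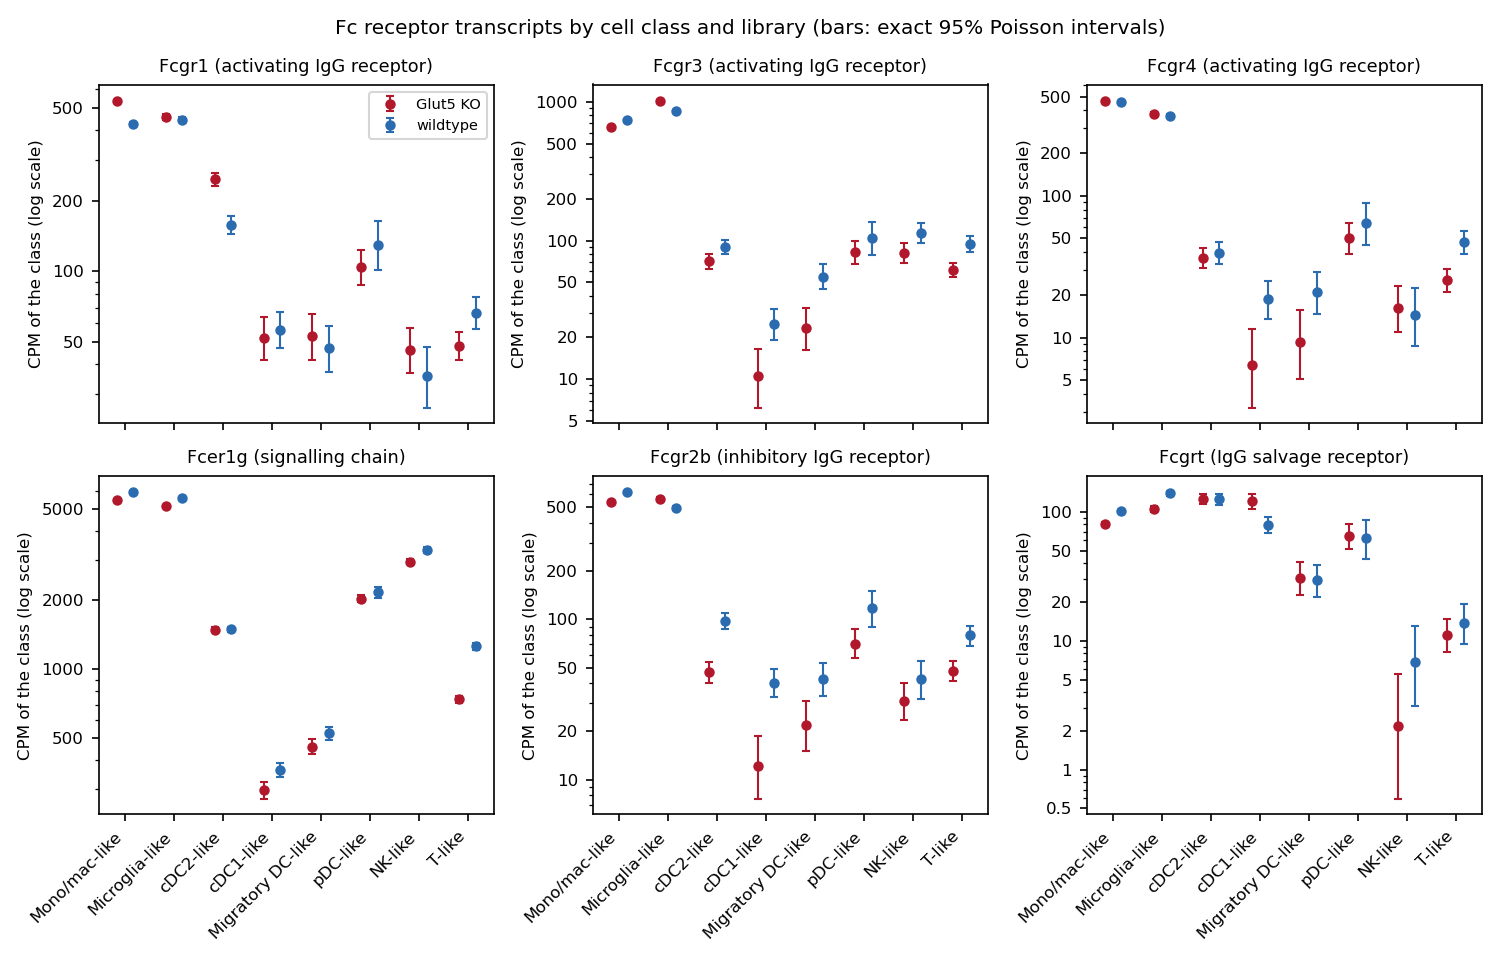
Level of each gene (CPM of the class, log axis) in 8 cell classes, Glut5 KO in red on the left of each pair and wildtype in blue on the right, with exact 95% Poisson intervals. The 4 IgG receptors are highest in the 2 phagocyte classes, Fcer1g is also high in NK cell-like cells (2944 CPM in Glut5 KO, 3303 CPM in wildtype), and Fcgrt in cDC2-like cells (125 CPM in Glut5 KO, 126 CPM in wildtype) is as high as in phagocyte classes.

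Many of the deeper phagocyte-like cells had transcripts of all 4 IgG receptor genes, though no doublet caller was run. With each cell thinned to 5000 UMIs, all 4 IgG receptor genes were detected in 52.5% of 3659 Glut5 KO and 54.1% of 4349 wildtype monocyte/macrophage-like cells, leaving out 1722 shallower Glut5 KO and 1078 shallower wildtype cells. In microglia-like cells the share was 50.7% of 846 cells in Glut5 KO and 50.4% of 1229 cells in wildtype, with 321 Glut5 KO and 308 wildtype cells left out. T cell-like cells, which should lack these receptors, gave 0.968% in Glut5 KO and 6.02% in wildtype (310 Glut5 KO and 166 wildtype cells). Before thinning, the median depth was 5439 UMIs in Glut5 KO and 5464 in wildtype T cell-like cells, and 7268 in Glut5 KO and 8590 in wildtype monocyte/macrophage-like cells. An activating receptor together with Fcgr2b was found in 82.4% [81.1 to 83.6] of thinned Glut5 KO and 88.2% [87.2 to 89.1] of thinned wildtype monocyte/macrophage-like cells. The same pair was found in 84.5% of Glut5 KO and 84.9% of wildtype microglia-like cells, whose intervals overlapped.

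Outside phagocytes the IgG receptors were lower. Fcgr1 came next in cDC2-like cells, the conventional dendritic cells that prime CD4 T cells, with 247 CPM in Glut5 KO and 157 CPM in wildtype, and in wildtype that level was within error of the next class. Plasmacytoid dendritic cell-like cells had 104 CPM of Fcgr1 in Glut5 KO and 130.0 CPM in wildtype. In the 4 remaining classes Fcgr1 lay between 35.6 and 66.6 CPM, and neighbours in the order overlapped. Fcgr4 stayed below 65 CPM in every non-phagocyte class, from 6.42 to 50.1 CPM in Glut5 KO and from 14.4 to 64.1 CPM in wildtype.

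Fcer1g, which also serves receptors other than those for IgG, had a wider reach. NK cell-like cells had 2944 CPM in Glut5 KO and 3303 CPM in wildtype, and plasmacytoid dendritic cell-like cells had 2033 CPM in Glut5 KO and 2166 CPM in wildtype. Fcgr3, the one IgG receptor that mouse NK cells are known to use, reached only 82.0 CPM in Glut5 KO and 114 CPM in wildtype NK cell-like cells. That left 20.4 Fcer1g UMIs per activating receptor UMI in Glut5 KO NK cell-like cells and 20.2 in wildtype, against 3.30 in Glut5 KO and 3.66 in wildtype monocyte/macrophage-like cells. With cells thinned to 1000 UMIs, Fcgr3 was in 8.66% of 335 Glut5 KO and 11.5% of 288 wildtype NK cell-like cells (medians 3643 UMIs in Glut5 KO and 3060 in wildtype). T cell-like cells gave 4.63% in Glut5 KO and 3.93% in wildtype. The NK share lay above that background beyond counting error in wildtype, while in Glut5 KO the intervals of NK (5.87 to 12.2) and T cell-like shares (3.04 to 6.71) overlapped.

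Fcgrt followed another order. Its levels were 125 CPM in Glut5 KO and 126 CPM in wildtype cDC2-like cells, 105 CPM in Glut5 KO and 139 CPM in wildtype microglia-like cells, and 80.8 CPM in Glut5 KO and 101 CPM in wildtype monocyte/macrophage-like cells. Among the 8 classes with 50 cells in both libraries, the lowest levels were in NK cell-like cells, at 2.17 CPM in Glut5 KO and 6.82 CPM in wildtype (4 UMIs in Glut5 KO, 9 in wildtype). Over the 16 class and library sums, Fcgrt was the gene least like the others, with Pearson correlations of log2(CPM + 10) between 0.111 (Fcer1g) and 0.697 (Fcgr1), while Fcgr4 and Fcgr2b reached 0.990.

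The genes most like each member over these 16 sums were sought among 2973 genes. For Fcgr1 they were Ctss, a lysosomal protease that clips the invariant chain, Cd72 and Dock4, all at 0.96. Fcgr3 was closest to Cd14, the lipopolysaccharide co-receptor, at 0.96, then to Fcgr2b and the complement gene C1qa. Fcgr4 and Fcgr2b were closest to each other, then to Cd14 and to Alas1, which starts haem synthesis. Fcer1g was closest to AB124611, to the adaptor gene Lat2 and to Lrmda, between 0.92 and 0.95. Fcgrt was closest to Erp29, a chaperone of the endoplasmic reticulum, at 0.98, and Fgd2 was also among its closest. The sums share libraries, depth and gates, so these are descriptions.

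Between genotypes no Fc receptor gene passed 1.5-fold in either phagocyte class as a whole. Of the 7 genes, 6 had at least 100 UMIs in microglia-like cells, and 0 of the 6 differed by 1.5-fold or more, where 6.84% of all 10120 genes with as many UMIs did. Monocyte/macrophage-like cells again had 0 of 6, where 8.69% of 11616 genes passed, so both counts are near what the share over all genes gives for 6 genes. The median log2 ratio of the members, Glut5 KO over wildtype, was 0.043 in microglia-like cells (−0.065 over all genes) and −0.15 in monocyte/macrophage-like cells (−0.059 over all genes).

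Within that range, Fcgr1 had the highest ratio in monocyte/macrophage-like cells, 0.32 [0.29 to 0.34] on the log2 scale. Of the genes of the class, 89.7% were at or below it, and split by sex it was 0.45 in female and 0.11 in male cells. Fcgrt had the lowest ratio in both phagocyte classes, at −0.40 [−0.50 to −0.30] in microglia-like and −0.33 [−0.39 to −0.27] in monocyte/macrophage-like cells. The ratios of Fcgr3 and Fcgr2b pointed in opposite directions in the 2 classes. Fcgr3 stood at 0.24 [0.21 to 0.28] in microglia-like cells and −0.18 [−0.20 to −0.16] in monocyte/macrophage-like cells, and Fcgr2b at 0.18 [0.14 to 0.23] in microglia-like and −0.20 [−0.22 to −0.18] in monocyte/macrophage-like cells. Fcer1g was slightly lower in Glut5 KO in both, at −0.11 in microglia-like and −0.12 in monocyte/macrophage-like cells, though at 0.0088 in female microglia-like cells. Dividing cells, which had lower Fcgr3 in both libraries, were 13.8% of Glut5 KO and 28.2% of wildtype microglia-like cells, and without them the Fcgr3 ratio was 0.14.

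**Figure D2:**
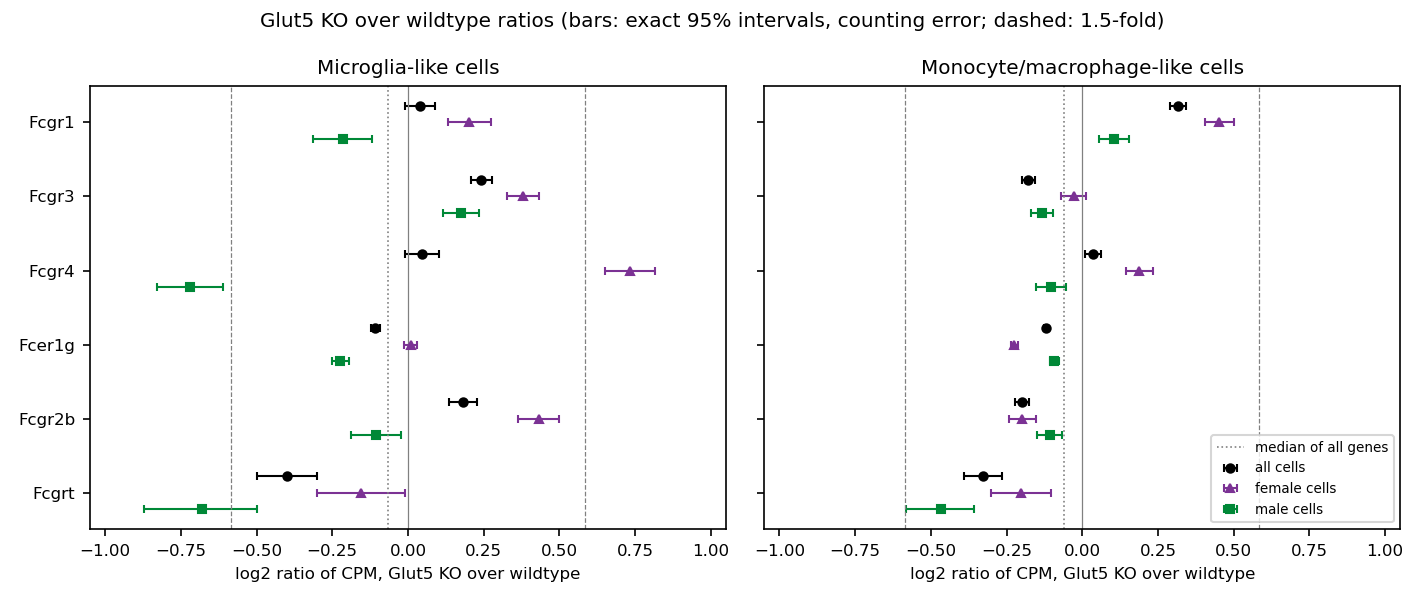
Log2 ratio of CPM, Glut5 KO over wildtype, of 6 genes in microglia-like (left) and monocyte/macrophage-like cells (right), for all cells (circles), female cells (triangles) and male cells (squares), with exact 95% intervals. All-cell ratios lie between −0.40 and 0.32, inside the dashed 1.5-fold lines, while Fcgr4 in microglia-like cells lies at 0.73 in female and −0.72 in male cells.

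The ratio of Fcgr4 in microglia-like cells was 0.047 [−0.0081 to 0.10] over all cells, which include cells that could not be sexed, and it had opposite signs in female and male cells. In female cells Fcgr4 had 472 CPM in Glut5 KO (486 cells) and 284 CPM in wildtype (582 cells), a log2 ratio of 0.73 [0.65 to 0.82]. In male cells it had 281 CPM in Glut5 KO (262 cells) and 463 CPM in wildtype (423 cells), a ratio of −0.72 [−0.83 to −0.61]. Fcgr4 was thus higher in the Glut5 KO library among female cells and lower there among male cells. Fcgr1 was split the same way with smaller ratios, at 0.20 in female and −0.22 in male cells, and Fcgr2b at 0.43 and −0.11, while Fcgr3 was higher in Glut5 KO in both sexes (0.38 and 0.18). Fcgr4 stood at 0.19 in female and −0.10 in male monocyte/macrophage-like cells. The titles name a single mouse per library, which cells of both sexes go against, so each sex in a library may stand for 1 animal or several, and sex and animal cannot be told apart.

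The monocyte/macrophage-like class was divided by marker sets into classical monocytes, nonclassical monocytes, inflammatory hypoxic cells and lipid-handling cells, and each receptor had its own peak. A cell entered a subset when that marker set was at least 2 times the class mean, which left 48.4% of Glut5 KO and 55.5% of wildtype cells in no subset, and 1317 Glut5 KO and 1359 wildtype cells had a highest value between 1.5 and 2.5. Fcgr1 peaked in the classical subset, with 913 CPM in Glut5 KO (845 cells) and 689 CPM in wildtype (753 cells). Fcgr4 peaked in the nonclassical subset, whose patrolling monocytes are known to carry FcγRIV, with 833 CPM in Glut5 KO (705 cells) and 688 CPM in wildtype (832 cells). Fcer1g peaked there too, at 8025 CPM in Glut5 KO and 8303 CPM in wildtype. Fcgr3 peaked in the lipid-handling subset, with 798 CPM in Glut5 KO (472 cells) and 997 CPM in wildtype (477 cells). Fcgr2b was highest in the hypoxic subset, with 629.6 CPM in Glut5 KO (757 cells) and 727 CPM in wildtype (354 cells), and in wildtype the lipid-handling subset was within error of it.

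**Figure D3:**
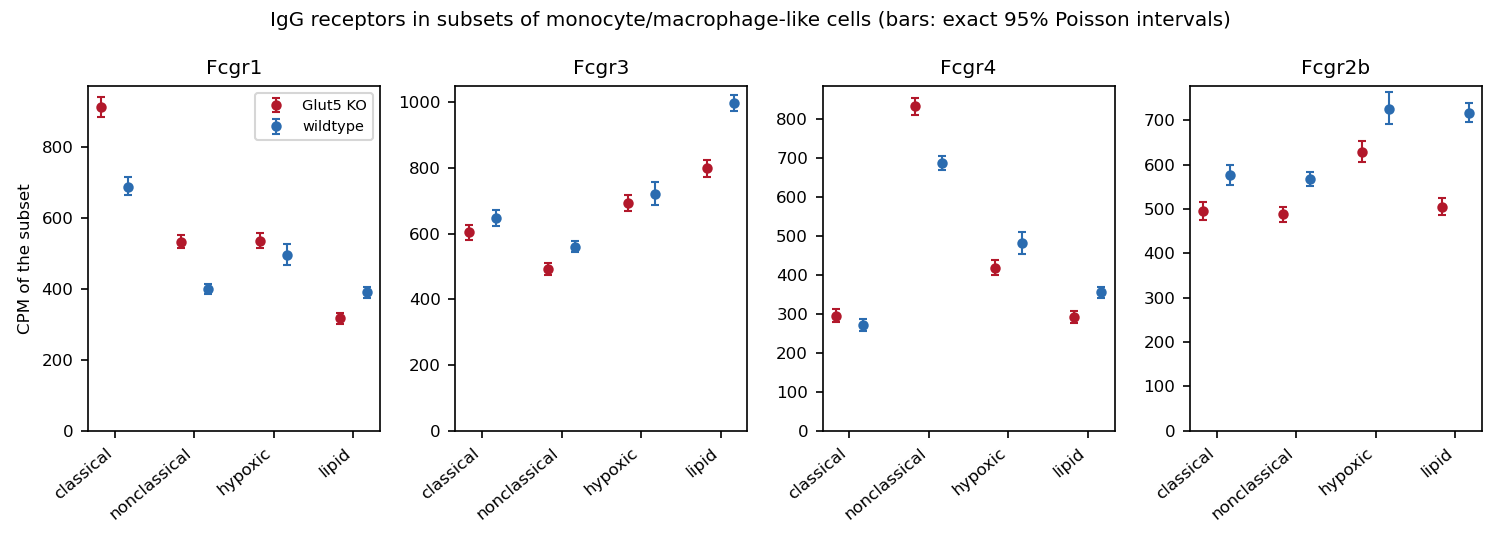
Levels (CPM of the subset) of the 4 IgG receptors in 4 subsets of monocyte/macrophage-like cells, Glut5 KO in red on the left of each pair and wildtype in blue on the right, with exact 95% Poisson intervals. Fcgr1 is highest in classical, Fcgr4 in nonclassical and Fcgr3 in lipid-handling cells in both libraries, and all 4 are lower in Glut5 KO in the lipid-handling subset.

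Genotype ratios followed the subset. Fcgr1 was higher in Glut5 KO in the classical (0.41 [0.34 to 0.47]) and nonclassical subset (0.41 [0.35 to 0.48]) but lower in the lipid-handling subset (−0.30 [−0.39 to −0.21]). Fcgr4 stood at 0.28 in nonclassical cells and at −0.28 in lipid-handling cells. Fcgr2b was lower in Glut5 KO in all 4 subsets, between −0.50 in lipid-handling and −0.21 in hypoxic cells. In the lipid-handling subset 1 of the 6 genes with 100 UMIs, Fcgrt, was lower in Glut5 KO by over 1.5-fold (74.5 CPM in Glut5 KO, 116 CPM in wildtype, −0.63 [−0.82 to −0.45]), where 8.16% of 7905 genes passed that fold and 4.78% were lower by it. In the other 3 subsets 0 of 6 did, where 5.09% of genes passed in classical, 4.95% in nonclassical and 7.09% in hypoxic cells.

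Dendritic cell-like cells had the larger differences among cells that are known to use these receptors. In cDC2-like cells Fcgr1 had 247 CPM in Glut5 KO (976 UMIs in 398 cells) and 157 CPM in wildtype (507 UMIs in 355 cells), a log2 ratio of 0.65 [0.50 to 0.81]. Fcgr2b had 46.6 CPM in Glut5 KO (184 UMIs) and 97.5 CPM in wildtype (314 UMIs), a ratio of −1.06 [−1.33 to −0.80]. These were 2 of the 6 genes with 100 UMIs, 1 in each direction, where 4.5% of 6204 genes passed 1.5-fold, 2.89% higher and 1.61% lower. Fcer1g (−0.0067) and Fcgrt (−0.0090) were nearly level in the same cells.

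Both cDC2-like differences were larger in female cells, which with 1 library per genotype could not be tested. There Fcgr1 had 249 CPM in Glut5 KO (160 cells) and 111 CPM in wildtype (87 cells), a ratio of 1.16 [0.84 to 1.51], against 0.31 [0.035 to 0.59] in male cells. Fcgr2b had 28.6 CPM in Glut5 KO and 83.2 CPM in wildtype female cells, a ratio of −1.54 [−2.09 to −0.998], against −0.16 [−0.66 to 0.32] in male cells, an interval that includes 0. With cells thinned to 1000 UMIs, Fcgr2b was in 3.79% of 396 Glut5 KO and 9.86% of 355 wildtype cDC2-like cells (class medians 9540.5 UMIs in Glut5 KO and 8476 in wildtype). T cell-like cells gave 5.16% in Glut5 KO and 4.92% in wildtype. The Glut5 KO share of cDC2-like cells was no higher than theirs, and the wildtype interval (6.96 to 13.4) overlapped theirs (2.78 to 7.98). T cell-like cells are not a matched background for dendritic classes. They held 1512 CPM in Glut5 KO and 2219 CPM in wildtype of the 5 phagocyte transcripts summed below, more than cDC2-like cells did. Fcgr1 was in 20.5% of Glut5 KO and 14.6% of wildtype cDC2-like cells, above the 4.27% in Glut5 KO and 4.59% in wildtype T cell-like cells.

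Phagocyte transcripts were also lower in Glut5 KO in these cells. The sum of C1qa, C1qb, C1qc, Lyz2 and Apoe in cDC2-like cells was 744 CPM in Glut5 KO and 907 CPM in wildtype, with all 5 genes lower in Glut5 KO and none at 0. Per 1000 UMIs of those 5 genes, cDC2-like cells had 62.7 Fcgr2b UMIs in Glut5 KO and 108 in wildtype, and 333 Fcgr1 UMIs in Glut5 KO and 174 in wildtype. On that scale T cell-like cells had 31.6 Fcgr2b UMIs in Glut5 KO and 35.8 in wildtype. Summed monocyte/macrophage markers in cDC2-like cells were nearly level, at 4206 CPM in Glut5 KO and 4211 CPM in wildtype. They were above the class's own markers, at 1398 CPM in Glut5 KO and 1453 CPM in wildtype, a list of 8 genes against 20. The part of phagocyte transcripts in the 2 ratios was not tested.

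The other dendritic classes were thinner. In cDC1-like cells, which cross-present antigen to CD8 T cells, 2 of the 4 genes with 100 UMIs passed 1.5-fold, where 3.69% of 4468 genes did. Fcgrt was higher, with 120.2 CPM in Glut5 KO (206 UMIs) and 78.8 CPM in wildtype (186 UMIs), a ratio of 0.61 [0.32 to 0.90] that was −0.031 with cells thinned to 1000 UMIs. Fcgr2b was lower, with 12.3 CPM in Glut5 KO (21 UMIs) and 40.3 CPM in wildtype (95 UMIs), a ratio of −1.69 [−2.47 to −1.02]. Both levels were below those of T cell-like cells (47.9 CPM in Glut5 KO, 79.4 CPM in wildtype). With cells thinned to 1000 UMIs, Fcgr2b was in 0 of 117 Glut5 KO cDC1-like cells, which allows a share of up to 2.56%. It was in 1.18% of 169 wildtype ones (medians 14813 UMIs in Glut5 KO and 13374 in wildtype). Those shares were no higher than in T cell-like cells (5.16% in Glut5 KO, 4.92% in wildtype), which held more phagocyte transcripts. In migratory dendritic cell-like cells 2 of 4 genes passed, where 5.65% of 3928 genes did. They were Fcgr3 at −1.22 (35 UMIs in Glut5 KO, 95 in wildtype) and Fcgr2b at −0.93 (33 UMIs in Glut5 KO, 73 in wildtype), both also below the T cell-like levels. Microglia markers in these cells summed to 58.7 CPM in Glut5 KO and 269 CPM in wildtype, and their part in the Fcgr3 ratio was not tested. Plasmacytoid dendritic cell-like cells had 1 of 6, Fcgr2b at −0.73, where 6.3% of 2921 genes passed, and its sign turned when cells were weighted equally (0.012) or thinned (0.36).

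Fcgr2b was lower in Glut5 KO in 6 of the 6 non-phagocyte classes with 50 cells, and so were Fcgr3 and the summed phagocyte transcripts, although the interval of Fcgr2b in NK cell-like cells and that of Fcgr3 in plasmacytoid dendritic cell-like cells included 0. The sums were 576 CPM in Glut5 KO and 868 CPM in wildtype cDC1-like cells (5 of 5 genes lower in Glut5 KO), and 877 CPM in Glut5 KO and 1131 CPM in wildtype migratory dendritic cell-like cells (5 of 5). Plasmacytoid dendritic cell-like cells had 1902 CPM in Glut5 KO and 2825 CPM in wildtype (4 of 5), and NK cell-like cells had 854 CPM in Glut5 KO and 1085 CPM in wildtype (4 of 5). No gene of the 5 was at 0 in any of them, and these genes, or the C1q genes alone, also set limits in the gates. Summed monocyte/macrophage markers did not go the same way in every class. They were higher in Glut5 KO plasmacytoid dendritic cell-like (8869 CPM, wildtype 8609) and NK cell-like cells (2286 CPM, wildtype 2054). They were lower in Glut5 KO cDC1-like (2614 CPM, wildtype 2773), migratory dendritic cell-like (1762 CPM, wildtype 2018) and T cell-like cells (3181 CPM, wildtype 3295). Per 1000 UMIs of those 5 genes, plasmacytoid dendritic cell-like cells had 37.1 Fcgr2b UMIs in Glut5 KO and 41.5 in wildtype, and 43.1 Fcgr3 UMIs in Glut5 KO and 36.9 in wildtype, so Fcgr3 was then the higher in Glut5 KO. NK cell-like cells had 36.2 Fcgr2b UMIs in Glut5 KO and 39.1 in wildtype, and 95.9 Fcgr3 UMIs in Glut5 KO and 105 in wildtype. For cDC1-like cells the scaled values were 21.3 Fcgr2b UMIs in Glut5 KO and 46.4 in wildtype, and 18.2 Fcgr3 UMIs in Glut5 KO and 28.8 in wildtype. Migratory dendritic cell-like cells had 25.1 Fcgr2b UMIs in Glut5 KO and 37.4 in wildtype, and 26.6 Fcgr3 UMIs in Glut5 KO and 48.6 in wildtype.

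**Figure D4:**
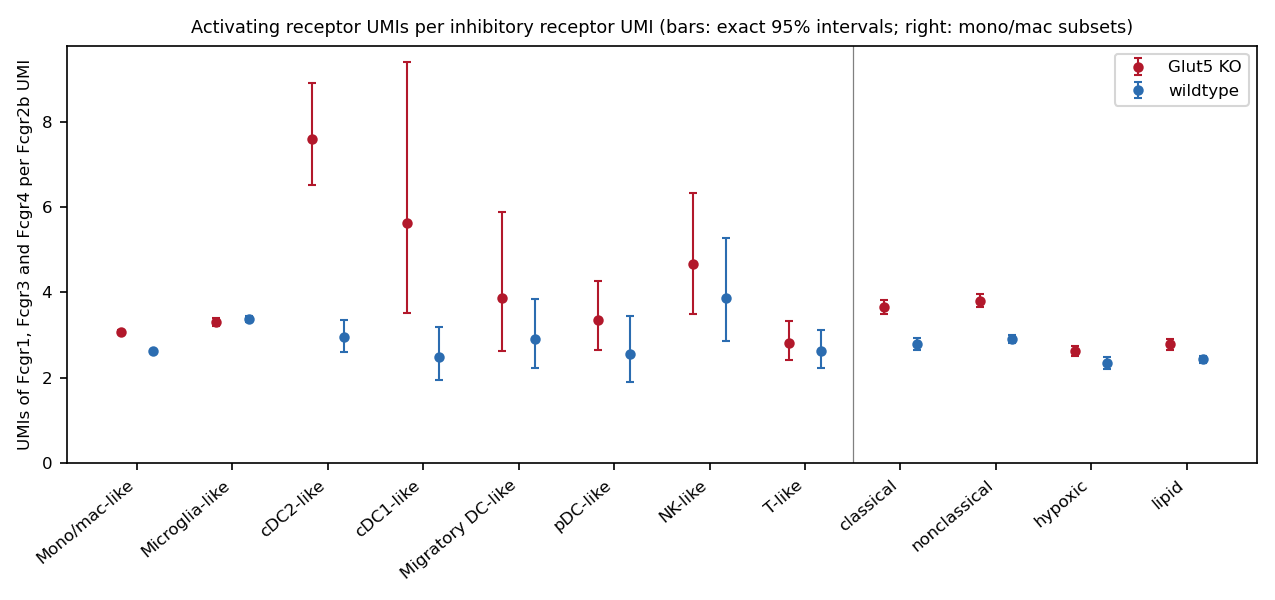
UMIs of the activating receptors Fcgr1, Fcgr3 and Fcgr4 per UMI of the inhibitory Fcgr2b, in 8 cell classes and, right of the line, 4 subsets of monocyte/macrophage-like cells, Glut5 KO in red and wildtype in blue, with exact 95% intervals. The widest gap is in cDC2-like cells, at 7.60 in Glut5 KO and 2.95 in wildtype. Microglia-like cells are level at 3.30 in Glut5 KO and 3.37 in wildtype. Fcgr2b in Glut5 KO cDC2-like cells (46.6 CPM) was no higher than in Glut5 KO T cell-like cells (47.9 CPM).

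The balance of activating to inhibitory receptor is the quantity by which phagocytes are thought to set their threshold for IgG. In cDC2-like cells there were 7.60 [6.52 to 8.92] activating UMIs per Fcgr2b UMI in Glut5 KO and 2.95 [2.59 to 3.36] in wildtype. Female cells had 12.1 in Glut5 KO and 2.68 in wildtype, and male cells 5.58 [4.23 to 7.48] in Glut5 KO and 4.12 [3.27 to 5.24] in wildtype, whose intervals overlapped. The balance in monocyte/macrophage-like cells was 3.06 [3.02 to 3.11] in Glut5 KO and 2.62 [2.59 to 2.65] in wildtype. Fcgr1 made up 24.2% of IgG receptor UMIs in Glut5 KO and 19.0% in wildtype, Fcgr3 29.9% in Glut5 KO and 33.1% in wildtype, Fcgr4 21.3% in Glut5 KO and 20.3% in wildtype, and Fcgr2b 24.6% in Glut5 KO and 27.6% in wildtype. The composition thus held more Fcgr1 and less Fcgr2b and Fcgr3 in Glut5 KO. There too the gap was wider in female cells, with 3.46 in Glut5 KO and 2.66 in wildtype, while male cells had 2.78 in Glut5 KO and 2.69 in wildtype. The subsets gave 3.65 in Glut5 KO and 2.79 in wildtype for classical cells, and 3.81 in Glut5 KO and 2.91 in wildtype for nonclassical cells. Microglia-like cells had 3.30 [3.21 to 3.39] in Glut5 KO and 3.37 [3.30 to 3.46] in wildtype, with overlapping intervals. Of the 8 classes, 7 had the higher balance in Glut5 KO, with intervals that did not overlap in the cDC1-like, cDC2-like and monocyte/macrophage-like classes alone. The Glut5 KO cDC1-like value rested on 21 Fcgr2b UMIs, at 12.3 CPM against 47.9 CPM in T cell-like cells. The Glut5 KO cDC2-like value rested on 184 Fcgr2b UMIs, at 46.6 CPM, also no higher than in those T cell-like cells. Wildtype T cell-like cells had 2.625, near the 2.62 of wildtype monocyte/macrophage-like cells, and in Glut5 KO the values were 2.82 and 3.06. Fcer1g UMIs per activating UMI were less alike, at 6.04 in wildtype T cell-like and 3.66 in wildtype monocyte/macrophage-like cells. In Glut5 KO they were 5.47 in T cell-like and 3.30 in monocyte/macrophage-like cells. The part of phagocyte transcripts in the balance of the other classes was not tested.

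In T cell-like cells, which are not known to rely on these receptors, 4 of the 5 genes with 100 UMIs were at least 1.5-fold lower in Glut5 KO, where 6.74% of 7028 genes passed in either direction and 2.58% were lower. Fcer1g had 738 CPM in Glut5 KO and 1258 CPM in wildtype, a ratio of −0.77 [−0.84 to −0.70]. Fcgr3 stood at −0.62, Fcgr2b at −0.73 and Fcgr4 at −0.89. The sign turned for Fcgr3, to 0.19, with cells thinned to 1000 UMIs and for Fcgr4, to 0.41, in female cells alone. Phagocyte transcripts were lower in the same cells, at 1512 CPM in Glut5 KO and 2219 CPM in wildtype, with all 5 genes lower. Per 1000 of those UMIs the same 4 genes had 31.6 Fcgr2b UMIs in Glut5 KO and 35.8 in wildtype, 40.7 Fcgr3 UMIs in Glut5 KO and 42.7 in wildtype, 488 Fcer1g UMIs in Glut5 KO and 567 in wildtype, and 16.8 Fcgr4 UMIs in Glut5 KO and 21.2 in wildtype. On that scale monocyte/macrophage-like cells had fewer UMIs of each, with 151 Fcer1g UMIs in Glut5 KO and 145 in wildtype. They had 14.9 Fcgr2b UMIs in Glut5 KO and 15.1 in wildtype, and 18.2 Fcgr3 UMIs in Glut5 KO and 18.1 in wildtype. Fcgr4 had 12.9 in Glut5 KO and 11.1 in wildtype. The part of phagocyte transcripts in the T cell-like ratios was not tested. NK cell-like cells had 0 of 4 genes past 1.5-fold, where 4.73% of 4463 genes were.

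Fcgr2b is also the one IgG receptor that B cells are known to carry. B cell-like cells, 217 in Glut5 KO and 15 in wildtype, had 132 [113 to 153] CPM in Glut5 KO and 146 [75.3 to 255] CPM in wildtype, from 181 UMIs in Glut5 KO and 12 in wildtype. Fcgr2b made up 47.8% of IgG receptor UMIs in Glut5 KO B cell-like cells, against 24.6% in Glut5 KO monocyte/macrophage-like cells. With cells thinned to 1000 UMIs it was in 15.3% of 202 Glut5 KO B cell-like cells (median 3563 UMIs), above the 5.16% in Glut5 KO T cell-like cells. The 15 wildtype cells were too few for the same comparison. Plasma cell-like cells, 32 in Glut5 KO and 2 in wildtype, had 48 Fcgr2b UMIs in Glut5 KO and 0 in wildtype.

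Neutrophil-like cells numbered 61 in Glut5 KO and 14 in wildtype, and monocyte/macrophage markers in them were as high as in the monocyte/macrophage-like class, at 14411 CPM in Glut5 KO and 11699 CPM in wildtype. The part of those transcripts in the receptor levels was not tested. Fcgr4, known as a neutrophil receptor, had 354 CPM in Glut5 KO (62 UMIs) and 279 CPM in wildtype (19 UMIs). Fcgr3 had 445 CPM in Glut5 KO (78 UMIs) and 675 CPM in wildtype (46 UMIs), and Fcer1g had 3636 CPM in Glut5 KO and 4389 CPM in wildtype. Their intervals overlapped between libraries for Fcgr4, and so few cells allow no firmer reading.

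Fcer1a marked mast cell or basophil-like cells and hardly any others. It had 201 UMIs in 32 of 41 such cells in Glut5 KO and 68 UMIs in 9 of 14 in wildtype. All other gated cells together held 1 UMI in Glut5 KO and 2 in wildtype, in monocyte/macrophage-like cells. The level was 1535 [1330 to 1762] CPM in Glut5 KO and 813 [631 to 1031] CPM in wildtype. The gated cells were not the same mixture, since Mcpt8, a basophil protease, had 42 UMIs in Glut5 KO and 247 in wildtype, while Cma1, a mast cell chymase, had 1261 UMIs in Glut5 KO and 308 in wildtype, and the part of that mixture in the Fcer1a level was not tested. The partners that complete the IgE receptor were present, Fcer1g at 2909 CPM in Glut5 KO and 2404 CPM in wildtype, and the beta chain Ms4a2 with 34 UMIs in Glut5 KO and 14 in wildtype.

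The signalling partners of the receptors were examined as lists. Of 19 ITAM adaptors and kinases, 17 had 100 UMIs in microglia-like cells, with 0 at least 1.5-fold higher (1.77% of all genes were) and 1 lower (5.07% of all genes were), and a median log2 ratio of 0.0068 (−0.065 over all genes). The ends of the list were Hcst (0.49) and Fgr (0.34), an adaptor and a Src kinase, and Rac2 (−0.24), a GTPase of the oxidase, and Vav3 (−0.63), its exchange factor. Among monocyte/macrophage-like cells 18 had 100 UMIs, with 1 higher (4.63% of all genes were) and 0 lower (4.05% of all genes were) and a median of −0.046 (−0.059 over all genes). The higher one was Cd247 (2.39), the zeta chain of T and NK cells, with 178 UMIs in Glut5 KO and 42 in wildtype. Hcst stood at 0.41 there and Rac2 at −0.24.

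Inhibitory phosphatases and adaptors gave 0 of 10 past 1.5-fold in microglia-like cells, where 6.84% of all genes were (median −0.074), from Cblb (0.37) and Inpp5d (0.23), which encodes SHIP1, to Dok3 (−0.24) and Dok2 (−0.32). The monocyte/macrophage-like class had 1 of 10 lower, where 4.05% of all genes were (median −0.076), the adaptor Dok2 (−0.65), with Inppl1 next at −0.25 and Cblb (0.55) and Dok1 (0.12) at the other end. Engulfment effectors gave 0 of 14 in both classes, where 6.84% of all genes passed in microglia-like and 8.69% in monocyte/macrophage-like cells, with medians of −0.099 in microglia-like and −0.11 in monocyte/macrophage-like cells. Their ends were Ncf1 (0.077), Elmo1 (0.071), Arpc5 (−0.18) and Ncf4 (−0.24) in microglia-like cells, and Cybb (0.11), Cyba (0.074) and Myo1e (−0.22) in monocyte/macrophage-like cells. B2m, the partner of FcRn, was higher in Glut5 KO in both classes, at 0.23 in microglia-like and 0.26 in monocyte/macrophage-like cells, where Fcgrt itself was lower.

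Among other antibody-binding or Fc receptor-like genes, 7 of 12 had 100 UMIs in microglia-like cells, with 0 higher and 2 lower, where 1.77% of all genes were higher and 5.07% lower (median −0.063). The lower ones were Fcrl5 (−0.87) and Lgals3 (−0.63), a galectin, and the highest were Fcrl1 (0.57), known from B cells, and Trim21 (0.32), a receptor for antibody in the cytosol. Of the same 12, 8 had 100 UMIs in monocyte/macrophage-like cells, with 0 higher and 1 lower, where 4.63% of all genes were higher and 4.05% lower (median 0.033). Fcrls, an Fc receptor-like gene known as a microglial marker, had 168 CPM in Glut5 KO and 349 CPM in wildtype there (−1.06), with microglia markers at 266 CPM in Glut5 KO and 394 CPM in wildtype in the same cells, whose part was not tested. Fcrl5 stood at −0.41 there, Cd300lf at 0.35 and Trim21 at 0.43.

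IgG transcripts were more abundant in the Glut5 KO library, which also held more B cell-like (217 in Glut5 KO, 15 in wildtype) and plasma cell-like cells (32 in Glut5 KO, 2 in wildtype). The antibody list also holds genes of other antibody classes. One of them, Ighm, was lower over all kept cells, at 155 CPM in Glut5 KO and 170 CPM in wildtype. Over all kept cells the 4 IgG heavy chain genes had 16367 UMIs in Glut5 KO and 2240 in wildtype, or 169 CPM in Glut5 KO and 19.3 CPM in wildtype. Ighg2c, whose IgG2c is a ligand of FcγRIV, had 9108 UMIs in Glut5 KO and 759 in wildtype, and Ighg1 had 920 in Glut5 KO and 1 in wildtype. For monocyte/macrophage-like cells 9 of 13 antibody constant genes had 100 UMIs, with 7 at least 1.5-fold higher in Glut5 KO, where 4.63% of all genes were. Among them were Jchain (85.3 CPM in Glut5 KO, 0.0368 CPM in wildtype) and Ighg2c (1247 UMIs in Glut5 KO, 0 in wildtype). Ighg2b (−0.24) and Ighm (−0.52) were lowest. Ighg1 in Glut5 KO was uneven, with 772 UMIs in monocyte/macrophage-like cells, 2 in microglia-like and 0 in T cell-like cells. In microglia-like cells 3 of 4 were higher, where 1.77% of all genes were. They were Igha (1082 UMIs in Glut5 KO, 1 in wildtype), Igkc (309 in Glut5 KO, 1 in wildtype) and Jchain (7.43), with Ighm (−0.38) lowest. None of these 4 is an IgG heavy chain gene, and Ighg2c had 22 UMIs in Glut5 KO and 0 in wildtype there. Free RNA, doublets and transcripts made by the cells were not separated, and antibody bound to receptors was not measured.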

How the data were processed

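The deposited values are counts of UMIs per gene and barcode, not normalized, per the file headers. Each library was a 10x 5′ v2 one with 16000 cells loaded, per the labels' protocols. The submitters' processing notes give Cell Ranger 3.1.0 and mm10, but version 7.0.1 stands in the header of the matrix. Whether introns were counted is not given in the sources used here, and the design text says knockdown where the labels say KO.

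Barcodes with at least 300 genes and under 10% mitochondrial UMIs were kept (12112 Glut5 KO, 11473 wildtype). A cell entered a class when it had UMIs of 2 to 4 of the class's markers, and phagocyte transcripts of 100 per 10000 UMIs removed it from lymphoid classes (C1q genes of 20 per 10000 from dendritic and neutrophil classes). These numbers were set after seeing the data. In microglia-like cells 245 Glut5 KO and 364 wildtype cells had just the minimum of markers, and 401 Glut5 KO and 643 wildtype ungated cells were 1 short. Of cDC2-like cells, 139 of 398 in Glut5 KO and 128 of 355 in wildtype had just the minimum, 3 of 8 markers. No doublet caller was run, and mixed barcodes were left out. UMIs were summed per class and library, as CPM. Log2 ratios had 0.5 added to each count, intervals were exact Poisson, Clopper-Pearson or conditional binomial, and a call meant 1.5-fold with 100 UMIs over both libraries. Thinned values used 1 fixed draw. With 1 library per genotype no test was made.

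Named genes were all members, the 3 most like each, and the 2 highest and 2 lowest of each list with 100 UMIs. A few of these genes are not reported here. Members and lists were chosen with earlier results of these data known. Some members of the antibody list were named beyond that rule after their values were seen, as were the mast cell genes. Python 3.11.15, numpy 2.4.6, scipy 1.17.1 and pandas 2.3.3 were used, and the ratio code was tested on simulated data. Promoter sequences are from RefSeq (GRCm38.p6), where 7 of 7 members matched, and gene positions and transcripts from GENCODE.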

Additional observations from a re-analysis of the deposited data

Results flagged for a closer look

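Female and male cells gave opposite ratios of Glut5 KO over wildtype for 3 genes in microglia-like cells and 1 in monocyte/macrophage-like cells, and these differences were not tested. In microglia-like cells the log2 ratio was 0.20 in female and −0.22 in male cells for Fcgr1, 0.73 and −0.72 for Fcgr4, and 0.43 and −0.11 for Fcgr2b. In monocyte/macrophage-like cells it was 0.19 in female and −0.10 in male cells for Fcgr4.

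Microglia-like and monocyte/macrophage-like cells pointed in opposite directions for Fcgr3 (0.24 and −0.18) and for Fcgr2b (0.18 and −0.20), also not tested.

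Fcer1a was found among barcodes left out as mixed, with 30 UMIs in 4 Glut5 KO barcodes and 14 UMIs in 1 wildtype barcode, and each of these barcodes had at least 3 mast cell or basophil markers.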

How the results depend on the processing

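The 10 alternatives for each ratio were other barcode, gate, doublet, weighting, scaling, prior and depth choices, each sex alone, and dividing cells left out. Over all classes, member ratios moved by less than their counting interval in 348 settings, by more in 117, and 5 called ratios changed sign. Those 5 were Fcgrt in cDC1-like cells (−0.031) and Fcgr3 in T cell-like cells (0.19) with cells thinned to 1000 UMIs, Fcgr2b in plasmacytoid dendritic cell-like cells with equal weight per cell (0.012) and thinned (0.36), and Fcgr4 in T cell-like cells of females alone (0.41). Ratios that were not called also changed sign, and these changes are not among the 5. Fcgr1 in microglia-like cells kept its sign in 5 of 10 settings, and Fcgr4 in monocyte/macrophage-like cells in 7 of 10. Fcgrt kept its sign in 6 of 10 in migratory and in plasmacytoid dendritic cell-like cells. The count of members past 1.5-fold in microglia-like cells was 1 in female and 2 in male cells, in place of 0. In monocyte/macrophage-like cells it was 0 under all 10.

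The median member ratio in microglia-like cells, 0.043, was −0.024 with equal weight per cell, 0.11 with median-of-ratios scaling, 0.29 in female cells, −0.22 in male cells, −0.012 thinned and −0.037 without dividing cells, so its sign is not settled. In monocyte/macrophage-like cells the median of −0.15 stayed below 0, at −0.18, −0.089, −0.11, −0.11 (−0.105), −0.17 (−0.165) and −0.17 (−0.167) under the same 6. Genes past 1.5-fold with a minimum of 20 in place of 100 UMIs numbered 1550 against 692 in microglia-like, 1975 against 1009 in monocyte/macrophage-like, 1184 against 165 in cDC1-like, 1152 against 279 in cDC2-like, 1499 against 222 in migratory dendritic cell-like, 1430 against 184 in plasmacytoid dendritic cell-like, 1535 against 474 in T cell-like and 1316 against 211 in NK cell-like cells. No paired analysis was possible because each genotype had 1 library, so no replicate could be left out either. Counts limit the small classes, such as NK cell-like cells, where Fcgrt had 4 UMIs in Glut5 KO and 9 in wildtype.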
